A study of Zea mays with 4 samples.

Results

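Pentatricopeptide repeat (PPR) genes of maize were described in endosperm, the tissue of the kernel that stores starch and protein. They were taken as every gene whose deposited description contains the word pentatricopeptide, which gave 265 of the 34567 genes listed in any library. The description calls 77 of them mitochondrial and 35 chloroplastic; 152 name neither organelle and 1 names both. These organelle words are predictions carried over with the gene description, not measurements. The rule reads words, so PPR genes under other names, such as the restorer-of-fertility genes, are not among the members. Another 82 genes carry a pentatricopeptide KEGG term without the word in their description and were not analysed here.

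PPR proteins are encoded in the nucleus and act in mitochondria and plastids, where each binds particular RNA sequences through its tandem helical repeats. Members of the P subfamily mainly stabilise, cleave, splice or help translate organelle transcripts, and members of the PLS subfamily mainly mark cytidines for editing to uridine. Loss of a mitochondrial PPR protein in maize often stops kernel development, with loss of respiratory chain subunits.

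RNA was sequenced at 10 days after pollination from wild-type kernels and from kernels of a mutant labelled dek, with 2 libraries per genotype. A library pooled 8 to 10 individuals, taken from 2 segregating ears. Values are given in the order library A, library B. The labels give neither the mutated gene nor the inbred background, so the genotype could not be checked by its own transcript. The libraries held 13119658 to 14776699 estimated counts each.

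Endosperm markers were high in all 4 libraries and lower in dek. The summed level of 27 zein genes, which encode the storage proteins of endosperm, was 51048 and 49340 FPKM (fragments per kilobase of gene, scaled to the fragments of the library) in the wild-type pools and 3622 and 6047 FPKM in the dek pools. Of other tissues, 5 oleosin genes, which coat oil bodies in embryo and aleurone, summed to 756 and 900 FPKM in the wild-type pools and to 129 and 121 FPKM in the dek pools. Of 17 chlorophyll a-b binding genes, which mark green tissue, 14 had a mean under 1 FPKM, and together they reached 8.63 to 11.5 FPKM. The part of these marker differences in the PPR results was not tested, and in bulk tissue fewer cells of a type cannot be told apart from less RNA per cell.

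PPR genes were expressed at low levels. Of the 265 members, 254 were listed in all 4 libraries, 53 had a mean under 1 FPKM over the libraries and 16 reached 10 FPKM. The median member had 1.84 FPKM. Mitochondrial, chloroplastic and other members were close in level, with medians of 2.10, 1.66 and 1.79 FPKM. Values of the same genotype agreed between pools, with a Pearson correlation over members of 0.943 in wild type and 0.952 in dek; genes are not independent replicates.

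The most abundant member of unmixed annotation was GRMZM2G143777, described like Arabidopsis At4g01990 and mitochondrial. Its FPKM was 23.8 and 23.2 in the wild-type pools and 31.2 and 34.1 in the dek pools. GRMZM2G139141, described like At1g55890, had 22.8 and 20.1 FPKM in the wild-type pools and 31.7 and 30.2 FPKM in the dek pools. GRMZM2G044023, described like At1g26460, had 18.3 and 21.4 FPKM in the wild-type pools and 26.9 and 32.6 FPKM in the dek pools. In each of these 3 mitochondrial members both dek libraries were above both wild-type libraries on the FPKM scale, as they were for 51.1% of all genes tested (17% were below). None of them passed the gene test, with log2 fold changes of 0.17 ± 0.130, 0.23 ± 0.130 and 0.39 ± 0.123 (SE) and adjusted p of 0.398, 0.273 and 0.0847 (edgeR quasi-likelihood test, Benjamini-Hochberg). The model BGI_novel_G002588, added by the authors and also described like At4g01990, had 17.2 and 18.5 FPKM in the wild-type pools and 26.5 and 24.8 FPKM in the dek pools, with an adjusted p of 0.351 by the same edgeR test.

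For 9 members the description also names another kind of protein, so their values may belong in part to that protein. They include the highest of all members, GRMZM2G073495, which had 41.3 and 40.6 FPKM in the wild-type pools and 50.6 and 63.2 FPKM in the dek pools. Its description joins a PPR entry with the plastid ribosomal protein L19-1, and the word chloroplastic comes from the ribosomal entry. Of the 16 members that reached 10 FPKM, 11 were left when the mixed descriptions were set aside. GRMZM2G129288, shared with a tubby-like F-box entry, and GRMZM2G347721, shared with an exostosin-like entry, gave log2 fold changes of 0.04 ± 0.146 and -0.09 ± 0.165 (SE), and neither passed.

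**Figure D1:**
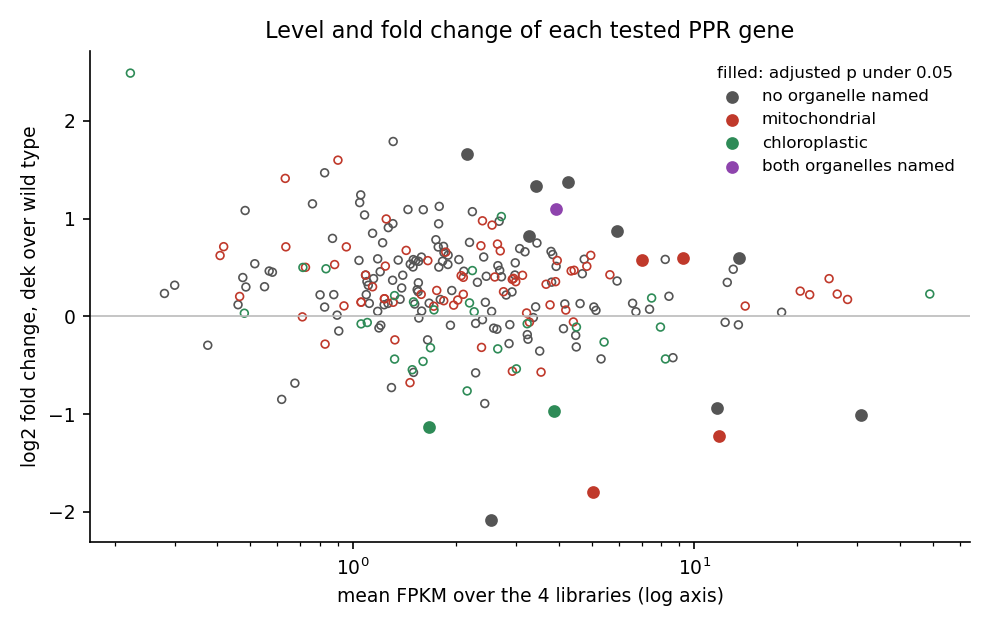
Mean FPKM over the 4 libraries (log axis) against the log2 fold change of dek over wild type for each of the 249 tested PPR genes, colored by the organelle named in the description; filled points passed an adjusted p of 0.05 in the edgeR test. Most points lie between 1 and 10 FPKM and above 0, and no member with a mean under 1 FPKM passed.

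The comparison of dek with wild type asks which genes change in the mutant endosperm at this stage. Few PPR genes passed it one at a time. Of 249 members tested, 9 rose and 7 fell in dek, together 6.43%, against 16.8% of all 24624 genes tested (edgeR quasi-likelihood test, adjusted p under 0.05 over all genes). Over all genes 7.98% rose and 8.85% fell. Only 24 members, or 9.64%, differed by 2-fold or more in either direction, against 21% of all genes.

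The share that passed followed the level of the gene. None of the 37 tested members with a mean under 1 FPKM passed, against 11.4% of all genes at that level. Between 1 and 2 FPKM 1 of 87 members passed, or 1.15%, against 10.5% of all genes, and between 2 and 5 FPKM 7 of 90, or 7.78%, against 13.6%. Between 5 and 10 FPKM 4 of 19 passed, or 21.1%, against 15.2%, and from 10 FPKM 4 of 16, or 25%, against 22.8%.

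The members nonetheless lay to one side. Their log2 fold change was above 0 for 189 of 249 (75.9%), against 50.7% of all genes (and 49.3% below 0), and the median was 0.29, with quartiles of 0.03 and 0.57, against 0.01 over all genes. In CPM scaled by TMM factors (counts scaled to library size with edgeR's correction for composition), both dek libraries were above both wild-type libraries for 127 members (51%; all genes 32.9%) and below for 31 (12.4%; all genes 31.5%). Against this median of 0.29 stood a median standard error of 0.317 per member. Genes of low level lay above 0 more often in general: at 1 to 2 FPKM the median was 0.22 over all genes and 0.30 over members, and at 2 to 5 FPKM it was 0.14 and 0.35. The part of gene level in the members' median was not tested.

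The size of this median depended on the scaling, as did that of all genes. With total counts in place of TMM factors, the median of all genes moved to 0.32 and that of the members to 0.60, so members stood 0.28 above all genes with either scaling; with limma on log2(FPKM + 1), which shrinks changes of low genes, the distance was 0.11. With total counts 43 members rose and 4 fell, and the 43 are 17.3% of the members against 18.3% of all genes, while 5.19% of all genes fell.

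PPR members held 0.172% and 0.167% of all counts in the wild-type pools and 0.234% and 0.235% in the dek pools. Their summed FPKM was 758 and 747 in wild type and 1012 and 1025 in dek. The genotypes did not overlap in either sum, and an exact two-sided permutation test of 2 against 2 libraries gave p = 0.333, the smallest it can give. In FPKM both dek libraries were above both wild-type libraries for 51.1% of all genes tested (17% were below). With total counts the median log2 fold change of all genes was 0.32. A share of counts also moves with what other genes take, and the zeins took far less in dek. The part of the zeins in the members' share was not tested.

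Medians differed with the organelle named in the description. The median log2 fold change was 0.34 over 72 tested mitochondrial members and -0.08 over 29 tested chloroplastic members, a difference of 0.42. Of the mitochondrial members 61 (84.7%) were above 0, and of the chloroplastic members 13 (44.8%). The 147 tested members that name neither organelle resembled the mitochondrial ones, with a median of 0.35 and 114 above 0 (77.6%). Both dek libraries were above both wild-type libraries in scaled CPM for 38 mitochondrial members (52.8%) and below for 6 (8.33%), while for chloroplastic members the counts were 9 and 9 (31% each), close to the 32.9% above and 31.5% below over all genes. Genes are not replicates, so no test was made between the classes.

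**Figure D2:**
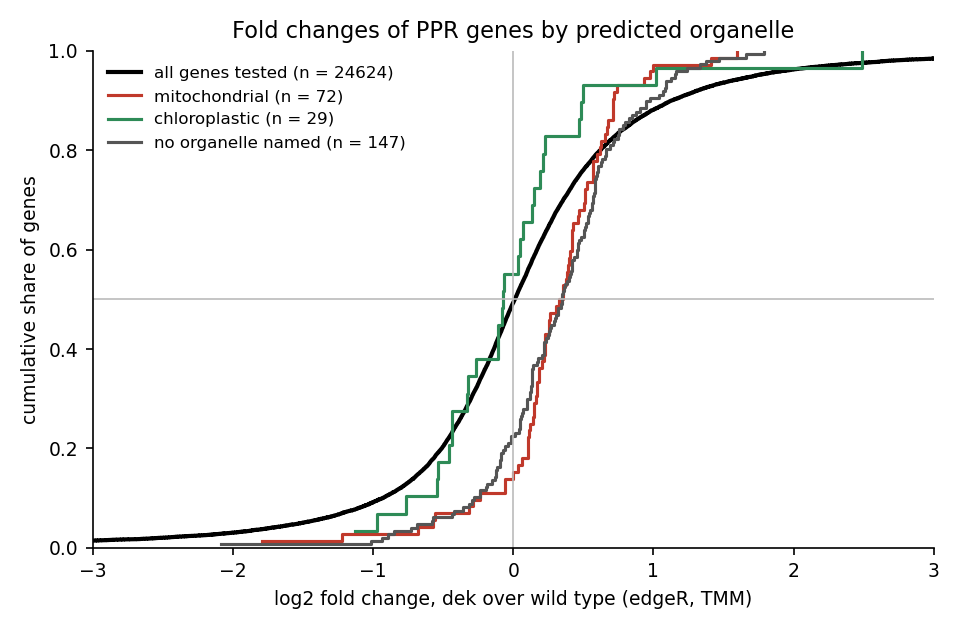
Cumulative share of genes (vertical axis) by log2 fold change of dek over wild type (horizontal axis, TMM scale) for all 24624 tested genes and for 3 classes of PPR genes. The mitochondrial and unlabelled curves reach a share of 0.5 to the right of 0, at 0.34 and 0.35, and the chloroplastic curve at -0.08, beside that of all genes at 0.01.

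Individual calls were few in each class, and the shares were not tested against each other. Among mitochondrial members 2 rose and 2 fell, or 5.56% of those tested, among chloroplastic members 0 rose and 2 fell, or 6.9%, and among those naming neither organelle 6 rose and 3 fell, or 6.12%, against 16.8% of all genes. At an unadjusted p under 0.05, edgeR gave 12 higher and 2 lower mitochondrial members and 1 higher and 5 lower chloroplastic ones, while 17% of all genes were higher and 17.2% lower. With total counts 15 mitochondrial members rose and 2 fell, and 1 chloroplastic member rose and 0 fell, when 18.3% of all genes rose and 5.19% fell. The chloroplastic median was then 0.23, above 0, with a distance of -0.09 from the median of all genes.

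A ratio within a library does not depend on scaling between libraries. Mitochondrial members summed to 256 and 255 FPKM in the wild-type pools and to 355 and 361 FPKM in the dek pools. Chloroplastic members summed to 114 and 115 FPKM in the wild-type pools and to 131 and 143 FPKM in the dek pools. The ratio of the sums was 2.25 and 2.22 in wild type and 2.70 and 2.53 in dek, without overlap (exact two-sided permutation p = 0.333, the smallest possible). Without the members of mixed description, which removes the L19-1 model from the chloroplastic sum, the ratio was 3.32 and 3.18 in wild type and 4.29 and 4.44 in dek.

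**Figure D3:**
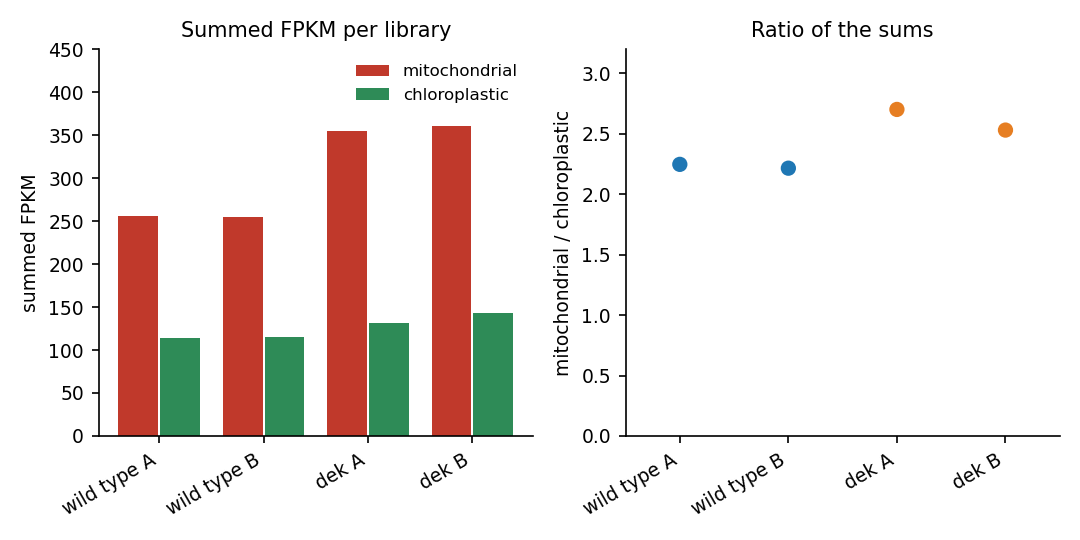
Left, summed FPKM of mitochondrial and chloroplastic PPR genes in each library (bars from 0, 1 library each); right, the ratio of the 2 sums, wild type in blue and dek in orange. The ratio is 2.25 and 2.22 in the wild-type libraries and 2.70 and 2.53 in the dek libraries.

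The organelle word does not always match what is known of the named protein. GRMZM2G028108 is described as mitochondrial and like At5g42310, which is CRP1, a plastid factor in Arabidopsis and maize; it had 1.81 and 1.69 FPKM in the wild-type pools and 0.85 and 1.52 FPKM in the dek pools, and did not pass. GRMZM2G144843 is described as mitochondrial and like At1g59720, which is the plastid editing factor CRR28 in Arabidopsis, and had a log2 fold change of -0.28 ± 0.476 (SE). Both were chosen after their values were seen.

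Among members past the threshold, the largest rise was in GRMZM2G153275, described like At4g13650. It had 0.91 and 0.90 FPKM in the wild-type pools and 3.08 and 3.71 FPKM in the dek pools. The libraries did not overlap, and the log2 fold change was 1.66 ± 0.243 (SE), with an adjusted p of 0.0128 (edgeR quasi-likelihood test, Benjamini-Hochberg). Its neighbour in the RefSeq table of assembly Zm-B73-REFERENCE-NAM-5.0, GRMZM2G056996, carries the same Arabidopsis name. It had 0.72 and 0.27 FPKM in the wild-type pools and 2.03 and 2.22 FPKM in the dek pools, with a log2 fold change of 1.79 ± 0.476 (SE), and missed the threshold with an adjusted p of 0.0549 by the same edgeR test. It was named after its values were seen, and reads of similar neighbours may have been split between them in the authors' counting.

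GRMZM2G177845 is described like At3g61360, which in Arabidopsis is SLO3, a splicing factor of the mitochondrial nad7 transcript. It had 2.13 and 1.94 FPKM in the wild-type pools and 6.83 and 6.19 FPKM in the dek pools. The genotypes lay well apart, with a log2 fold change of 1.37 ± 0.234 (SE) and an adjusted p of 0.0184 (edgeR, Benjamini-Hochberg). GRMZM2G168968, described like At1g09680, varied between pools of the same genotype, with 2.09 and 1.10 FPKM in the wild-type pools and 3.94 and 6.57 FPKM in the dek pools. It still rose, by a log2 fold change of 1.33 ± 0.334 (SE), with an adjusted p of 0.0471 (edgeR, Benjamini-Hochberg).

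GRMZM2G005433 is the member that names both organelles. Its PPR entry is mitochondrial, like At4g19220, and its other entry is the photosystem II protein PSB28, so its reads cannot be given to either. It had 2.09 and 2.16 FPKM in the wild-type pools and 4.94 and 6.55 FPKM in the dek pools, with a log2 fold change of 1.10 ± 0.179 (SE) and an adjusted p of 0.0165 (edgeR, Benjamini-Hochberg). GRMZM2G022787, described like At3g16010, had 3.40 and 3.76 FPKM in the wild-type pools and 8.02 and 8.60 FPKM in the dek pools, a log2 fold change of 0.87 ± 0.153 (SE). Both genes were higher in each dek library than in any wild-type library.

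Editing factors supplied another of the genes that rose. GRMZM2G163396 is described like At4g14850, which is MEF11, a mitochondrial editing factor in Arabidopsis, and had 2.09 and 2.03 FPKM in the wild-type pools and 4.81 and 4.21 FPKM in the dek pools. Its log2 fold change was 0.83 ± 0.200 (SE), with an adjusted p of 0.0437 (edgeR, Benjamini-Hochberg). GRMZM2G158645, mitochondrial and described like At4g32450, had 6.21 and 6.65 FPKM in the wild-type pools and 12.1 and 11.9 FPKM in the dek pools, a log2 fold change of 0.60 ± 0.138 (SE). GRMZM2G396752, described like At2g15980, had 9.56 and 9.25 FPKM in the wild-type pools and 17.9 and 17.4 FPKM in the dek pools, a log2 fold change of 0.60 ± 0.134 (SE).

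The last gene that rose was GRMZM2G376918, mitochondrial and described like At2g35030, with 5.26 and 4.66 FPKM in the wild-type pools and 9.28 and 8.95 FPKM in the dek pools. Its log2 fold change was 0.57 ± 0.145 (SE), with an adjusted p of 0.0482 (edgeR, Benjamini-Hochberg). Its RefSeq match carries the synonyms of a peptide methionine sulfoxide reductase.

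**Figure D4:**
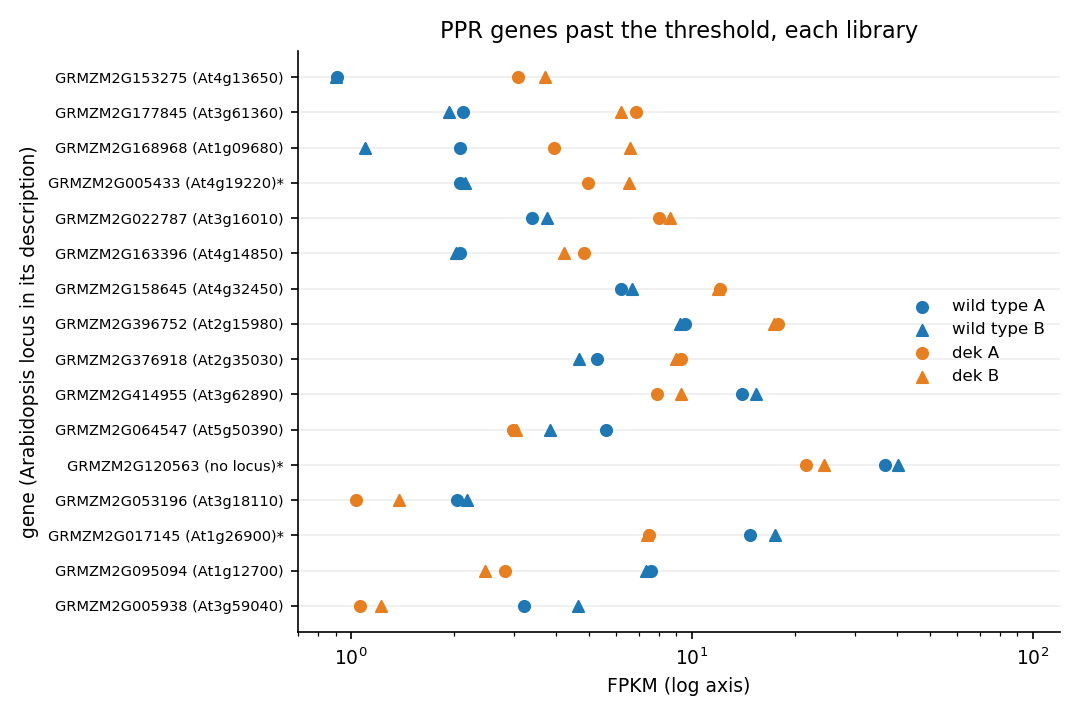
FPKM (log axis) of the 16 PPR genes past the threshold, ordered by log2 fold change, with wild type in blue and dek in orange (circles library A, triangles library B); an asterisk marks a description that also names another protein. In every row both dek points lie on one side of both wild-type points.

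Of the 7 genes that fell, GRMZM2G005938 fell furthest. Described like At3g59040, it had 3.22 and 4.62 FPKM in the wild-type pools and 1.06 and 1.22 FPKM in the dek pools, with a log2 fold change of -2.08 ± 0.316 (SE) and an adjusted p of 0.0138 (edgeR, Benjamini-Hochberg). The smallest adjusted p of all members was that of GRMZM2G095094, mitochondrial and described like At1g12700. In Arabidopsis this locus is RPF1, which is needed for processing the 5′ end of the mitochondrial nad4 transcript. GRMZM2G095094 had 7.57 and 7.34 FPKM in the wild-type pools and 2.82 and 2.47 FPKM in the dek pools, a log2 fold change of -1.80 ± 0.176 (SE) with an adjusted p of 0.00493 (edgeR, Benjamini-Hochberg).

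Both chloroplastic members that fell were lower in each dek library than in either wild-type library. GRMZM2G053196, described like At3g18110, had 2.05 and 2.19 FPKM in the wild-type pools and 1.03 and 1.38 FPKM in the dek pools, a log2 fold change of -1.13 ± 0.238 (SE) with an adjusted p of 0.0310 (edgeR, Benjamini-Hochberg). GRMZM2G064547, described like At5g50390, had 5.61 and 3.84 FPKM in the wild-type pools and 2.99 and 3.05 FPKM in the dek pools, a log2 fold change of -0.97 ± 0.245 (SE). Neither passed with total counts, and in GRMZM2G064547 the wild-type pools differed from each other by more than the nearer one differed from dek.

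GRMZM2G414955, described like At3g62890, had 14.1 and 15.4 FPKM in the wild-type pools and 7.88 and 9.29 FPKM in the dek pools, a log2 fold change of -0.93 ± 0.197 (SE), and did not pass with total counts. The remaining pair that fell have mixed descriptions. GRMZM2G017145, mitochondrial and described like At1g26900, shares its model with a helix-loop-helix entry and had 14.8 and 17.6 FPKM in the wild-type pools and 7.50 and 7.37 FPKM in the dek pools. GRMZM2G120563 shares its model with alanine aminotransferase and efflux-protein entries and had 36.9 and 40.2 FPKM in the wild-type pools and 21.6 and 24.4 FPKM in the dek pools. Their log2 fold changes were -1.22 ± 0.160 and -1.01 ± 0.146 (SE). Without all 9 members of mixed description, 8 genes rose and 5 fell, or 5.42% of 240 tested.

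Leaving out any library ended some of these calls, and leaving out a dek library ended most. Without dek A 0 members rose and 1 fell, when 1.11% of all genes rose and 1.83% fell. Without dek B 0 rose and 2 fell, against 1.36% and 2.43% of all genes. Without wild type A 9 rose and 6 fell (all genes 6.73% and 7.65%), but only 5 of the 9 were among those called with all libraries. Without wild type B 4 rose and 5 fell (5.26% and 5.09%). GRMZM2G158645, GRMZM2G163396, GRMZM2G376918 and GRMZM2G396752 passed in none of the 4 fits. GRMZM2G095094 was the only one of the 16 that passed in each of them. With limma on log2(FPKM + 1) 30 members rose and 5 fell, against 18.2% and 5.38% of all genes, and with a pseudocount of 0.1 26 rose and 5 fell, against 16.8% and 5.12%. With upper-quartile factors 10 rose and 6 fell (8.55% and 8.07%), with no low-count filter 7 and 6 (5.25% and 5.84%), and with a change of at least 2-fold asked as well 4 and 5 (5.48% and 5.21%). The p-values measure the spread between pools, not between kernels.

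Members described like Arabidopsis proteins on a list of 47 loci of known role were counted by that role. The list is not complete, so members named like unlisted proteins of the same roles were not counted. Such a description is a name given by similarity and does not make the maize gene its counterpart. Over all genes, 7.98% rose and 8.85% fell. Of 21 tested members named like listed editing factors, 1 rose and 0 fell, and the median log2 fold change of the 21 was 0.22. At an unadjusted edgeR p under 0.05, 3 of them were higher and 0 lower. Another 6 were named like listed mitochondrial factors, grouped under splicing, cleavage or translation though not all have these roles. Of these, 0 rose and 1 fell, with a median of 0.20. GRMZM2G177845, described like the mitochondrial splicing factor SLO3, was not on the list and so not counted here. It rose, with a log2 fold change of 1.37. Of 6 named like listed plastid factors of RNA stability, splicing or translation, none passed and 2 were above 0. Their median was -0.09, against 0.01 over all genes. At an unadjusted edgeR p under 0.05, 0 of these 6 were higher and 1 was lower. Over all genes 17% were higher and 17.2% lower at that p.

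Among the members named like listed editing factors, GRMZM2G180716 came nearest the threshold without passing. It is described like At1g08070, the plastid editing factor OTP82 in Arabidopsis, and had 5.36 and 6.42 FPKM in the wild-type pools and 9.76 and 11.3 FPKM in the dek pools, with an adjusted p of 0.0560 (edgeR, Benjamini-Hochberg). Another 3 members named like plastid editing factors lay near 0: GRMZM2G158839 (CLB19) had a log2 fold change of -0.08 ± 0.256, GRMZM2G103078 (CRR22) of -0.08 ± 0.232 and GRMZM2G111455 (LPA66) of -0.19 ± 0.446 (SE). All 3 were above 0 with total counts.

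Of the plastid factors, GRMZM2G122116 is described like PTAC2, a component of the transcriptionally active plastid chromosome, and had 7.79 and 9.55 FPKM in the wild-type pools and 7.32 and 8.23 FPKM in the dek pools. GRMZM2G432850 is described like GUN1, which acts in signalling from plastid to nucleus, and had 6.51 and 8.31 FPKM in the wild-type pools and 9.55 and 7.43 FPKM in the dek pools. In both genes the genotypes overlapped on this scale. The log2 fold changes of GRMZM2G122116 and GRMZM2G432850 were -0.44 ± 0.168 and -0.11 ± 0.194 (SE), and neither passed. The model BGI_novel_G002753, chloroplastic and described like At4g18750, had 6.10 and 6.36 FPKM in the wild-type pools and 8.83 and 8.67 FPKM in the dek pools, with a log2 fold change of 0.19 ± 0.162 (SE).

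Both members with a maize gene symbol on the list searched act in plastids. GRMZM2G025409 is ppr5, which stabilises the precursor of a plastid glycine tRNA, and had 5.53 and 5.65 FPKM in the wild-type pools and 5.70 and 4.42 FPKM in the dek pools. GRMZM2G177169 is ppr10, which protects the ends of plastid transcripts such as that of atpH, and had 1.03 and 0.88 FPKM in the wild-type pools and 1.88 and 1.63 FPKM in the dek pools. Their log2 fold changes were -0.44 ± 0.213 and 0.58 ± 0.317 (SE), on opposite sides of 0, and neither passed.

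Of mitochondrial factors, GRMZM2G130366 is described like PPR596, which in Arabidopsis affects editing of the rps3 transcript. In the counts by role above, GRMZM2G130366 was placed with the mitochondrial factors and not with the editing factors. It had 16.7 and 16.2 FPKM in the wild-type pools and 23.8 and 24.9 FPKM in the dek pools, with a log2 fold change of 0.26 ± 0.122 (SE). GRMZM2G021710 is described like MTSF1, which stabilises the mitochondrial nad4 transcript, and had 2.65 and 3.43 FPKM in the wild-type pools and 5.11 and 4.48 FPKM in the dek pools, with a log2 fold change of 0.36 ± 0.202 (SE). In both genes both dek libraries were above both wild-type libraries in FPKM, as for 51.1% of all genes tested (17% were below). Neither gene passed.

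Many members share an Arabidopsis name: 245 members name 183 loci, and 12 loci are named by at least 3 members. The 7 members described like At2g03880 form the largest such group, and all 5 that could be tested were above 0, from 0.15 to 0.66. Of the 6 members described like At5g65560, 5 were above 0, with a median of 0.40. Over all tested members 75.9% were above 0, and over all genes 50.7%. The 4 described like At3g62890 spread from -0.93 to 1.09, so a shared name did not go with a shared direction there. In 2 pairs of members the counts were identical in every library, and how the authors' counting shared reads within those pairs was not tested.

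Other nuclear genes of organelle RNA processing were counted for comparison: 43 genes by description, of which 40 were tested, 1 rose and 2 fell, when 7.98% of all genes rose and 8.85% fell. Their median log2 fold change was 0.10, against 0.29 for PPR members and 0.01 over all genes. The gene that rose, GRMZM2G325350, encodes a mitochondrial transcription termination factor and had 2.68 and 2.82 FPKM in the wild-type pools and 7.06 and 6.06 FPKM in the dek pools. Those that fell were GRMZM2G003765, annotated with the DAG editing partners, and GRMZM2G094072, the group II intron splicing factor CFM2, with log2 fold changes of -0.76 ± 0.152 and -0.71 ± 0.133 (SE). Neither of these passed with total counts, and none of the 3 passed when either dek library was left out.

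**Figure D5:**
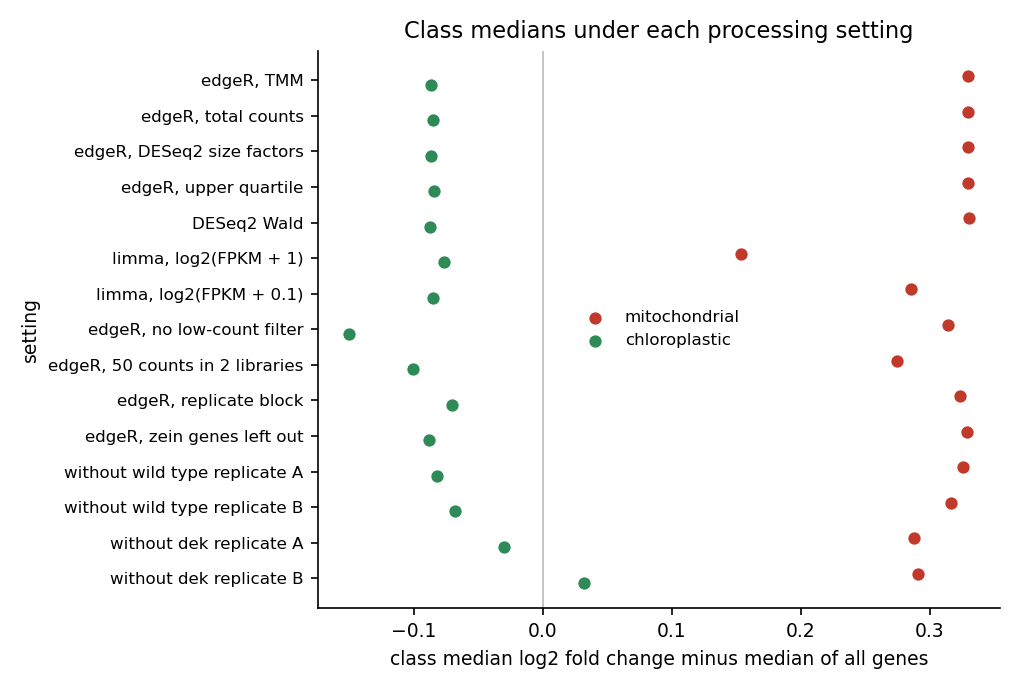
Median log2 fold change of mitochondrial and of chloroplastic PPR genes minus the median of all genes tested (horizontal axis), under each processing setting (vertical axis). Mitochondrial medians lie from 0.15 to 0.33 above all genes, and chloroplastic medians below all genes except without dek replicate B, at 0.03.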

How the data were processed

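Total RNA was extracted with CTAB and sequenced with standard Illumina libraries, per the labels' protocols; strand and poly(A) selection were not stated. Each deposited table lists, per gene, an expected count, an FPKM value and a length. The submitters' processing notes name HISAT, Bowtie2, RSEM and GATK without version or role, and no build. Expected counts were used in the form the authors deposited, with no normalization. FPKM was computed by the authors from gene length and library fragments, per the file headers. Genes not listed in a library were taken as 0.

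Members, classes, lists and naming rule were chosen with earlier results of these data known. Counts were rounded and fitted in edgeR 4.0.16 (R 4.3.3), quasi-likelihood, TMM factors, filterByExpr, genotype only, two-sided, with Benjamini-Hochberg adjustment over 24624 genes and a threshold of 0.05. The biological coefficient of variation was 0.226. Standard errors are the log2 fold change over the square root of F. The TMM factors were 0.895 and 0.903 for wild type and 1.128 and 1.097 for dek.

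Genes were named by rule: in each class up to 5 each way with the largest fold change among those past the threshold, with 2 FPKM in the higher genotype and no overlap; the 4 highest in level; members with a listed maize symbol; and at most 10 named like proteins of known role. One entry of the role list, whose Arabidopsis locus did not belong to the protein named, was dropped; its member was not among the genes tested. All 16 members past the threshold were named. Gene names came from RefSeq (Zm-B73-REFERENCE-NAM-5.0), matched for 44 members by model identifier and 121 by protein accession; 100 matched none. Sequence features were not analysed here.

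Alternatives were DESeq2 size factors and the DESeq2 1.42.0 Wald test, upper-quartile and total-count scaling, limma 3.58.1 on log2 FPKM plus 1 or 0.1, other low-count filters, a replicate block, zeins left out, a 2-fold minimum, reference models only and each library left out. The edgeR fit was tested on simulated data. Tables used Python 3.11.15, pandas 2.3.3 and scipy 1.17.1, and figures matplotlib 3.10.9.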

Additional observations from a re-analysis of the deposited data

How the results depend on the processing

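The difference between the mitochondrial and chloroplastic medians kept its sign under every setting run, and was 0.23 with limma on log2(FPKM + 1) and 0.26 to 0.41 with 1 library left out. The members' median stayed above 0: it was 0.60 with total counts, 0.33 with upper-quartile factors, 0.36 and 0.57 with limma on log2(FPKM + 1) and log2(FPKM + 0.1), 0.26 with at least 50 counts in 2 libraries and 0.25 to 0.32 with 1 library left out. The number of members that rose, 9, became 43 with total counts, 30 and 26 with limma on log2(FPKM + 1) and log2(FPKM + 0.1), 4 with a 2-fold minimum and 0 to 9 with 1 library left out; the number that fell, 7, became 4 with total counts and 1 to 6 with 1 library left out. Mitochondrial members that rose, 2, became 15 with total counts, 11 and 10 with limma, 1 with no low-count filter, 0 with a 2-fold minimum and 0 to 1 with 1 library left out; those that fell, 2, became 1 without mixed descriptions and 1 to 2 with 1 library left out. Chloroplastic members that rose, 0, became 1 with total counts and 1 with either limma setting; those that fell, 2, became 0 with total counts and with either limma setting, 1 with upper-quartile factors, 1 with no filter, 1 with a 2-fold minimum and 0 to 1 with 1 library left out. The settings without mixed descriptions, with the organelle taken from the PPR entry alone, and all those for the members' median were chosen after seeing the data. The cause of these changes was not tested.

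The title letters A and B recur in both genotypes, but the labels do not tie a letter to an ear, so the letters were not taken as pairing. Same-letter deviations correlated at -0.05 over all genes tested and at -0.17 over members. With 2 libraries per genotype, these correlations cannot tell whether libraries of the same letter shared an ear. With the letter as a replicate block, 1 member rose (GRMZM2G153275) and 4 fell, when 3.29% and 4.39% of all genes did, with 0 mitochondrial members rising and 0 chloroplastic members falling.

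Some named members near 0 changed sign without passing in either fit. With total counts, limma on log2(FPKM + 1) and limma on log2(FPKM + 0.1), in that order, the log2 fold change was 0.222, 0.164 and 0.215 for GRMZM2G103078, 0.118, 0.0927 and 0.12 for GRMZM2G111455, 0.233, 0.175 and 0.222 for GRMZM2G158839, 0.219, 0.125 and 0.135 for GRMZM2G347721, and 0.199, 0.174 and 0.193 for GRMZM2G432850. With 1 library left out it ranged from -0.195 to 0.0218 for GRMZM2G103078, -0.384 to 0.0343 for GRMZM2G111455, -0.0826 to 0.132 for GRMZM2G129288, -0.199 to 0.0119 for GRMZM2G158839, -0.233 to 0.0636 for GRMZM2G347721 and -0.288 to 0.0655 for GRMZM2G432850. The median standard error was 0.317 over members and 0.249 over all genes tested.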
